A study of Homo sapiens with 6 samples.

Results

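The established cell line A549, which comes from a human lung adenocarcinoma, was measured on 6 arrays, and these are described along a split that crosses their labels. On the PIAS3 side stood both arrays of cells given the PIAS3 plasmid and array 2 of the cells given a STAT3 siRNA. On the control side stood both arrays of the EGF control and array 1 of the STAT3 siRNA cells. Each side held 3 of the 6 arrays, and the levels of 22215 probe sets, all those that are not array controls, were compared between them. The split was chosen from the measured values, because the arrays resembled each other along it. The separation of the sides is therefore a description, and no test was made of it.

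By the labels, the PIAS3 cells received the vector pCMV5 carrying human PIAS3, the siRNA cells received an siRNA against STAT3, and the control cells were not transfected and were stimulated with EGF. The series text adds serum-free medium and EGF for all groups, whereas the growth protocol gives seeding for 12 h with 10% FBS. The treatment protocol speaks of untreated cells, so it is not clear whether the transfected cells received EGF. RNA was taken 48 h after transfection, and for the control arrays no other time is given. None of the 6 arrays is labelled as an empty vector or a non-targeting siRNA. No label gives a culture condition, flask, passage or batch that differs between the sides, so the sides are named only by the arrays they hold. The labels do not say whether replicate arrays came from separate cultures. P-values therefore set a group difference against the spread between these arrays only, and that spread may be technical.

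A549 cells carry an active NRF2 pathway, in which the transcription factor NRF2 drives enzymes that make glutathione and reduce quinones and aldehydes. They express secretory and liver-type genes, fibrinogen among them, beside mesenchymal genes such as vimentin. Serum, cell density and attachment are known to act on such cells through the actin cytoskeleton: when actin filaments assemble, the coactivator MRTF enters the nucleus and works with the factor SRF on genes for actin-binding proteins.

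The targeted genes were read first. Levels are log2 values after RMA, given throughout in the order PIAS3 array 1, PIAS3 array 2 and siRNA array 2 for the PIAS3 side, then siRNA array 1, control array 1 and control array 2 for the control side. PIAS3, a SUMO ligase that inhibits STAT3, stood at 7.78, 7.72 and 7.64 on the PIAS3 side and 7.50, 7.70 and 7.71 on the control side. The sides overlapped, and whether this probe set reads the plasmid's transcript is not known here. STAT3, the cytokine-responsive transcription factor, stood at 10.18, 9.70 and 9.94 on the PIAS3 side and 10.23, 10.50 and 10.43 on the control side. Both siRNA arrays lay below both controls, and siRNA array 2 lay below siRNA array 1, but the lowest value was that of PIAS3 array 2. The sides were 0.05 apart on this probe set, and they overlapped after a repeated quantile normalization and after cyclic loess. The other STAT3 probe set stood at 9.62, 9.24 and 9.62 against 9.78, 10.02 and 10.03, a gap of -0.16.

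Array quality measures moved partly with the split. The difference between the 3′ and 5′ control probe sets of actin, a measure of RNA integrity and labelling, was 0.43, 0.28 and 0.23 on the PIAS3 side and 0.16, 0.12 and 0.10 on the control side. The same difference for GAPDH was 0.40, 0.37 and 0.40 against 0.29, 0.36 and 0.29, so that neither measure overlapped between the sides. Array medians spanned 6.63 to 6.72. The poly-A RNA spike-ins stood 1.41 above the control mean on PIAS3 array 1 and between -0.36 and -0.13 on the other transfected arrays. The part of these measures in the gene differences below was not tested.

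Array 2 of the siRNA cells resembled PIAS3 array 2 more than its own replicate. The spread of a pair is the SD over probe sets of the difference between its arrays, on the log2 scale. It was 0.187 between siRNA array 2 and PIAS3 array 2, where 4 probe sets differed by at least 1 log2, a 2-fold change. Between the siRNA replicates it was 0.254, with 124 such probe sets. Array 1 of the siRNA cells lay closer to the controls, at 0.210 and 0.199, with 52 and 41 such probe sets. The closest of the 15 pairs were the control replicates at 0.152. PIAS3 array 1 stood apart from every other array, at 0.346 from its replicate, 0.364 from siRNA array 2 and 0.418 to 0.437 from the control side. These distances are the values that chose the split.

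**Figure D1:**
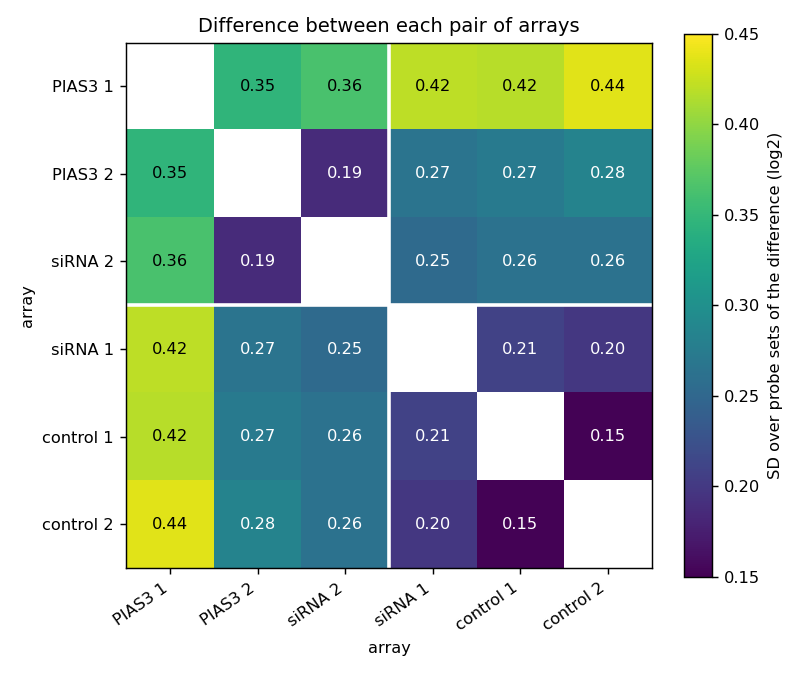
SD over 22215 probe sets of the log2 difference between each pair of arrays, shown as colour and number, with white lines between the sides. Within the control side the pairs lie between 0.152 and 0.210, and within the PIAS3 side the pair without PIAS3 array 1 has 0.187 and the pairs with it 0.346 and 0.364, while pairs across the sides lie between 0.254 and 0.437.

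Few genes stood far apart between the sides. A gap is the distance from the lowest array of the higher side to the highest array of the other side, and it is 0 where the sides overlap. With any gap, 1939 probe sets (8.73%) lay above on the PIAS3 side and 2715 (12.2%) below. That balance depended on the scaling, with 2355 above and 2043 below after each array's median was set to the same level. With a gap of at least 0.5 log2, 138 (0.621%) lay above and 92 (0.414%) below, and with at least 1 log2, 34 (0.153%) above and 17 (0.0765%) below. Without siRNA array 1 these counts were 200 above and 206 below at 0.5 log2 and 48 above and 51 below at 1 log2, so that the excess above was not kept. Without siRNA array 2 they were 217 and 136, and 57 and 30. Taking the brightest probe set of each of 11963 genes, 1175 genes (9.82%) lay above and 1410 (11.8%) below with any gap. With a gap of at least 0.5 log2, 90 genes (0.752%) lay above and 55 (0.46%) below. These shares are the background for the counts of each gene group. For counts made without PIAS3 array 1 the background is 15.4% of all genes above and 19% below.

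The difference inside the siRNA group ran along the difference between the PIAS3 and control groups. These differences share no array, although RMA processed all arrays together and the split was chosen from this likeness. Over 22215 probe sets the difference of siRNA array 2 from array 1 had a Pearson correlation of 0.432 and a Spearman correlation of 0.229 with the PIAS3 minus control difference, as a description across probe sets that share arrays. Single pairs of a PIAS3 and a control array gave Pearson correlations of 0.327 to 0.454. Without PIAS3 array 2 the slope of the relation was 0.202, against 0.357 with all arrays.

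The likeness was strongest among the probe sets that differed most. Of 171 probe sets that were 1 to 2 log2 higher in PIAS3 than in control cells, 89.5% were higher on siRNA array 2 than on siRNA array 1, with a median of 0.58. Of 108 that were 1 to 2 log2 lower, 90.7% were lower on siRNA array 2, with a median of -0.56. Among all probe sets 39.1% were higher on siRNA array 2. Not all large PIAS3 differences were shared: of 39 probe sets at least 2 log2 higher in PIAS3 cells, 5 were not higher on siRNA array 2.

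**Figure D2:**
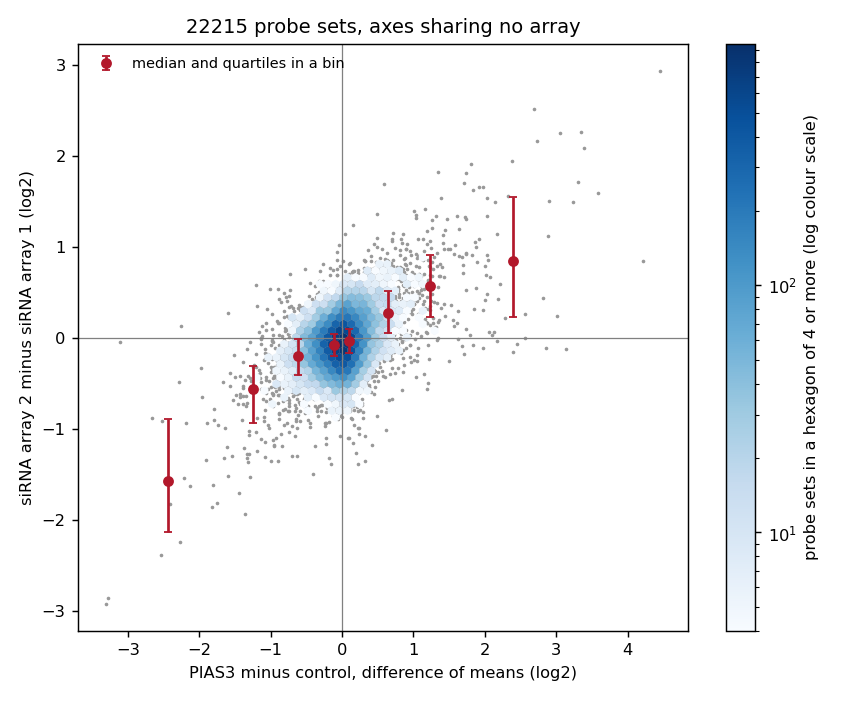
Each of 22215 probe sets by its PIAS3 minus control difference of group means (horizontal, log2) and its difference of siRNA array 2 from siRNA array 1 (vertical, log2), with medians and quartiles in red for 8 bins of the horizontal axis. The medians run from -1.56 in the lowest bin to 0.85 in the highest.

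Genes called between the labelled PIAS3 and control groups were read in the siRNA arrays, which had no part in the call. With limma on those 4 arrays, 130 probe sets (0.585%) were higher and 132 (0.594%) lower in PIAS3 cells at the adjusted p threshold of 0.05. Of the 130 higher, 127 (97.7%) were also higher on siRNA array 2 than on siRNA array 1, by a median of 0.74 against 1.13 in the labelled comparison. Of the 132 lower, 124 (93.9%) were also lower on siRNA array 2, by a median of -0.56 against -1.18. The levels on siRNA array 2 lay nearer the PIAS3 mean than the control mean in 116 of the 130 and 127 of the 132. For siRNA array 1 these counts were 7 and 46. Both siRNA arrays lay beyond the controls in the PIAS3 direction in 85 of the 130 and 106 of the 132. In these, siRNA array 1 differed from the controls in that direction too. The counts by nearness and position were not made over all probe sets, so they have no background here. The split was also chosen from this likeness. Counted as genes, the calls were 92 (0.769%) higher and 81 (0.677%) lower. The number of calls depended on single arrays: 0 were made without either control array, 704 higher and 544 lower without PIAS3 array 1, and 1846 higher and 2731 lower without PIAS3 array 2, where the remaining array was assumed to vary like the other group.

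The gene farthest above on the PIAS3 side was TM4SF20, a membrane protein of the transmembrane 4 L6 family. Its levels were 9.28, 8.46 and 7.61 on the PIAS3 side and 4.68, 4.37 and 4.46 on the control side. The nearest arrays of the sides were 2.93 apart, which is 7.64-fold, and all 3 arrays of the control side lay within a narrow band. TSPAN7, a tetraspanin, stood at 7.29, 7.81 and 7.58 against 5.07, 4.87 and 4.86, a gap of 2.22. S100P, a secreted calcium-binding protein, stood at 10.90, 9.57 and 9.14 against 6.89, 6.94 and 6.83, a gap of 2.20. In both, siRNA array 1 stood close to the controls and siRNA array 2 close to PIAS3 array 2. Each array reads a whole culture, so more cells with a transcript and more transcript per cell cannot be told apart.

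Other genes with large gaps encode a secreted protein, an enzyme and a transporter. SPP1, the secreted matrix phosphoprotein osteopontin, stood at 11.34, 11.01 and 10.86 against 9.21, 9.13 and 9.28. PLA2G4A, the phospholipase that frees arachidonic acid, stood at 8.56, 7.99 and 7.84 against 6.30, 6.25 and 6.22. ABCG2, a drug efflux pump, stood at 9.19, 9.18 and 8.88 against 7.23, 7.16 and 7.37. These genes were separated by gaps of 1.58, 1.54 and 1.51, with no array between the sides. CYP4F11 and CYP4F3, which hydroxylate fatty acids and leukotriene B4, had gaps of 1.34 and 1.32. For NOTCH3, a Notch receptor, and TRPA1, an irritant-sensing ion channel, the brightest probe set had gaps of 1.44 and 1.30, but the other probe set of each gene overlapped between the sides. CST1, a secreted cysteine protease inhibitor, completed the 15 genes with a gap of 1.14.

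**Figure D3:**
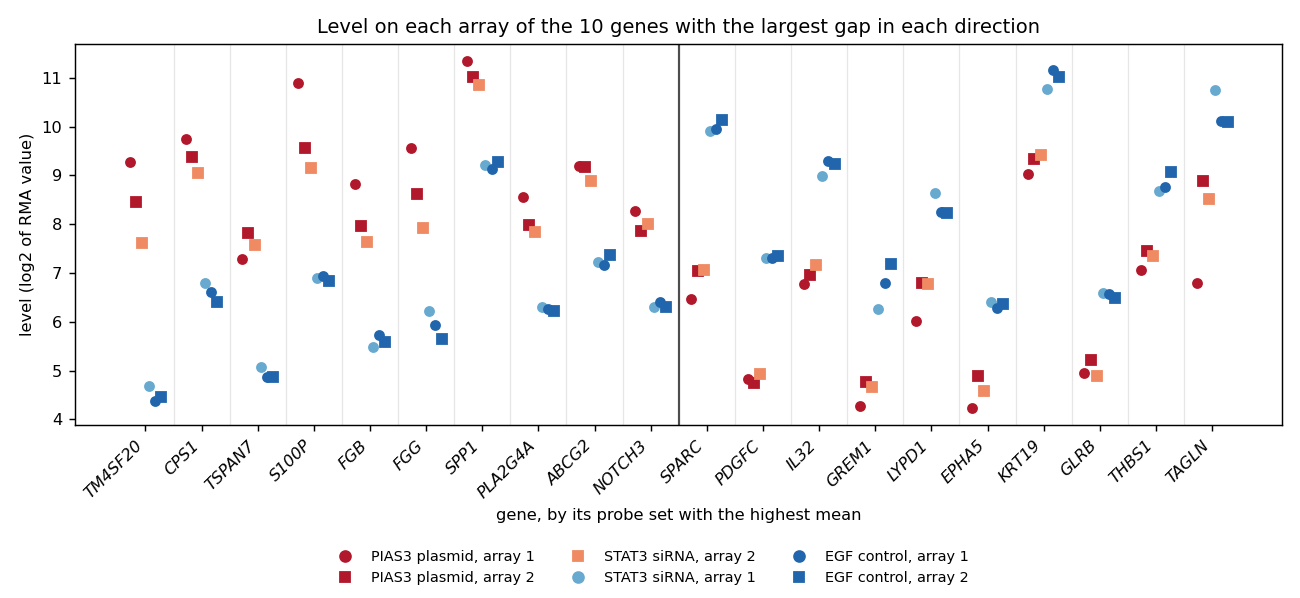
Level (log2 RMA value) on each of the 6 arrays for the 10 genes with the largest gap above (left of the line) and below (right) on the PIAS3 side, with red for the PIAS3 side and blue for the control side. Chosen for their separation, no gene has overlapping sides, and siRNA array 2 (light red) stands with the PIAS3 arrays and siRNA array 1 (light blue) with the controls.

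The fibrinogen chains lay above on the PIAS3 side together. FGB, the beta chain, stood at 8.82, 7.96 and 7.63 against 5.47, 5.73 and 5.59, a gap of 1.90, and its other probe set had a gap of 2.08. FGG, the gamma chain, stood at 9.57, 8.61 and 7.92 against 6.21, 5.93 and 5.64. FGA, the alpha chain, stood at 9.29, 8.02 and 7.42 against 6.30, 5.63 and 5.90. The other FGA probe set was dim, at 4.83, 3.94 and 3.48 against 3.32, 3.14 and 3.26, a gap of 0.17. All chains were highest on PIAS3 array 1, then PIAS3 array 2, then siRNA array 2, and no control-side array reached them. Of the 18 acute phase genes measured, 8 (44.4%) lay above and 2 (11.1%) below, against 9.82% and 11.8% of all genes. The 3 above by at least 0.5 log2 were the fibrinogen chains. Other acute phase genes differed little: C3, the central complement component, stood at 9.38, 8.55 and 8.46 against 8.89, 9.06 and 9.02, with overlapping sides. SERPINA1, which inhibits neutrophil elastase, overlapped as well.

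Liver and gut lineage genes were mixed, with a few members far apart. CPS1, the first enzyme of the urea cycle, stood at 9.74, 9.38 and 9.05 against 6.80, 6.61 and 6.40, a gap of 2.25, and its other probe set had a gap of 1.90. TM4SF4, a relative of TM4SF20, stood at 10.30, 10.40 and 10.24 against 8.89, 8.33 and 8.32. HGD, which breaks down homogentisate in tyrosine catabolism, stood at 8.73, 8.43 and 8.36 against 6.54, 7.22 and 7.24, a gap of 1.12. The 2 other HGD probe sets had gaps of 0.13 and 0.81. FOXA2, a liver and lung transcription factor, stood at 8.75, 8.65 and 8.69 against 8.15, 7.99 and 7.95, a gap of 0.49. Of the 18 members measured, 6 (33.3%) lay above and 1 (5.56%) below, against 9.82% and 11.8% of all genes. Albumin (ALB) stayed between 3.63 and 3.93 on every array, within the range of 3.26 to 3.93 seen for control probe sets of transcripts absent from human cells.

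The promoters of FGA, FGB, TM4SF4 and SPP1 are shown because, among the acute phase genes and the 15 genes farthest above, theirs hold GTTAAT, core letters bound by the liver factor HNF1, in capitals. Those of FGG, CPS1, TM4SF20 and S100P were searched too and hold no match. They are the 250 bases before each gene's start from RefSeq (GRCh38.p14), at chr4:154590743-154590992 on the minus strand for FGA, chr4:154562730-154562979 on the plus strand for FGB, chr3:149474447-149474696 on the plus strand for TM4SF4 and chr4:87975464-87975713 on the plus strand for SPP1. Both strands were searched, so a match can read ATTAAC. The match starts 52 bases before the gene start in FGA, 51 in FGB, 139 in TM4SF4 and 215 in SPP1.
FGA: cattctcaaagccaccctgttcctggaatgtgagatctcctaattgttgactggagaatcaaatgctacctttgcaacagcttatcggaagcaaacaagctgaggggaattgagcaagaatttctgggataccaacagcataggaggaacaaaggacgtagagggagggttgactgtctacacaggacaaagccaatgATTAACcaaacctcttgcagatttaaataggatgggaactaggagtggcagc
FGB: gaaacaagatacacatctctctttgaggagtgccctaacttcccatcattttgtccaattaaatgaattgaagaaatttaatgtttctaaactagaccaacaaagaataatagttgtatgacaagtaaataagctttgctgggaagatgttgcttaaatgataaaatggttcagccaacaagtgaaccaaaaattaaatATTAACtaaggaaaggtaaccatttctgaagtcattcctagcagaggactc
TM4SF4: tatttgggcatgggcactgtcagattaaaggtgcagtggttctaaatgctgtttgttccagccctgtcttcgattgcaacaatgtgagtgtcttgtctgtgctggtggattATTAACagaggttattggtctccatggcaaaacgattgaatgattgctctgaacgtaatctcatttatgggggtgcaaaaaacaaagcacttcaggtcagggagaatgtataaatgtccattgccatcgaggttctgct
SPP1: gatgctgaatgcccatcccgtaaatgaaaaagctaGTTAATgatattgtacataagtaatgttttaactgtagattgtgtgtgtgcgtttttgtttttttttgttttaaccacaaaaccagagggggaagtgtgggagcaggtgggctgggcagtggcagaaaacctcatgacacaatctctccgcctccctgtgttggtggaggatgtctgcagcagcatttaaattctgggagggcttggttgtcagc
In windows that also hold the first bases after the start, GTTAAT was found in 6.89% of all 27305 promoters and in 4.52% of the 9562 whose genes are on the array. It was found in 3 of the 12 promoters held for the 15 genes farthest above (FGB, SPP1 and TM4SF4) and in 2 of 13 for the acute phase list. For the 15 genes farthest below it was found in 1 of 11 (TLE4). A match is a description of the sequence and not a binding site.

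Most NRF2 target genes lay above on the PIAS3 side, by small amounts. Of the 24 measured, 20 (83.3%) lay above and 0 below, against 9.82% and 11.8% of all genes, and 4 had a gap of at least 0.5 log2. The median member was 0.30 higher on siRNA array 2 than on siRNA array 1 and 0.34 higher in PIAS3 than in control cells, against -0.04 and -0.0043 over all genes. The count of 20 was the same under the other 3 scalings. Without PIAS3 array 1 it was also 20, against 15.4% of all genes, but leaving out an array cannot lower such a count. Under limma, 2 members were higher in PIAS3 than in control cells and 0 lower.

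HMOX1, the heme-degrading oxygenase, was farthest apart, at 10.98, 11.07 and 10.99 against 9.87, 9.60 and 9.62. GPX2, a glutathione peroxidase of epithelia, stood at 11.98, 11.12 and 10.83 against 9.92, 9.78 and 9.68. PGD, an enzyme of the pentose phosphate pathway, stood at 13.05, 12.94 and 12.89 against 12.24, 12.16 and 12.22. Their gaps were 1.11, 0.92 and 0.65, and siRNA array 1 stood close to the controls, a little above them in each gene. EPHX1, the microsomal epoxide hydrolase, had a gap of 0.60, and GCLC, the catalytic subunit of the first glutathione synthesis enzyme, 0.36. NFE2L2, the gene of NRF2 itself, had a gap of 0.34. Other members were separated by less. NQO1, a quinone reductase, stood at 13.44, 13.38 and 13.40 against 13.23, 13.24 and 13.22, and 1 of its 2 other probe sets overlapped. The members that overlapped were GSTM3, ABCC2, ABCC3 and SLC7A11. ALDH3A1, an aldehyde dehydrogenase counted in the list of aryl hydrocarbon receptor targets with NQO1, stood at 13.04, 12.62 and 12.69 against 11.70, 11.61 and 11.55. CYP1B1, a cytochrome P450 of that list, had a gap of 0.38, with 1 of its 3 other probe sets overlapping. Of the 8 measured members 3 (37.5%) lay above and 2 (25%) below, against 9.82% and 11.8% of all genes. Without PIAS3 array 1, 4 lay below, against 19% of all genes.

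Several secretory epithelial genes lay above as well. AGR2, a disulfide isomerase needed for mucin folding, stood at 12.42, 11.46 and 11.35 against 10.26, 9.98 and 10.08. MUC5B, a gel-forming airway mucin, stood at 8.74, 7.55 and 7.68 against 6.89, 6.83 and 6.79. SPDEF, the factor that drives goblet cell genes, stood at 8.66, 8.37 and 8.28 against 7.94, 7.77 and 7.91. All these were highest on PIAS3 array 1, without overlap between the sides on the brightest probe set. The other MUC5B probe set and 1 of the 4 others of SPDEF overlapped. Of 12 trefoil peptide and mucin genes, 4 (33.3%) lay above and 0 below, against 9.82% and 11.8% of all genes. Those with levels under 5 on all arrays, MUC16, MUC4 and TFF2, overlapped.

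Genes of the TGF-beta and BMP pathways lay in both directions. ID1, a target of BMP signals that blocks helix-loop-helix factors, stood at 12.20, 11.32 and 11.52 against 10.72, 10.10 and 10.04. ID2 stood at 9.57, 9.90 and 10.40 against 9.33, 8.30 and 8.72, and SMAD6, a BMP-induced inhibitor, had a gap of 0.18 on its brightest probe set, while its 3 others overlapped. The ligand TGFB2 and the receptor TGFBR2 went the other way, with gaps of -0.56 and -0.34, and 1 of the 3 other TGFB2 probe sets overlapped. Of 19 TGF-beta and BMP genes, 7 (36.8%) lay above and 6 (31.6%) below, against 9.82% and 11.8% of all genes.

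Smaller shares of lysosomal and hypoxia genes lay above. In lysosomal and autophagy genes, 6 of 24 (25%) lay above and 2 (8.33%) below, against 9.82% and 11.8% of all genes. CTSL, the protease cathepsin L, led them at 12.02, 11.30 and 11.40 against 10.58, 10.74 and 10.68. Of 26 glycolysis and hypoxia genes, 7 (26.9%) lay above and 3 (11.5%) below. ADM, a hypoxia-induced peptide, and PFKFB3, which raises the glycolytic activator fructose bisphosphate, had gaps of 0.41 and 0.42. The glycolytic enzymes LDHA and PGK1 overlapped. Without PIAS3 array 1, 11 of the 26 lay above, against 15.4% of all genes.

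SPARC, a secreted collagen-binding glycoprotein, was the gene farthest below on the PIAS3 side. It stood at 6.48, 7.05 and 7.05 on the PIAS3 side and 9.90, 9.95 and 10.14 on the control side. The nearest arrays were 2.85 apart, which is 7.22-fold, and the other SPARC probe set showed -2.54. PDGFC, a platelet-derived growth factor ligand, stood at 4.83, 4.75 and 4.94 against 7.32, 7.31 and 7.34. Its levels were nearly the same within each side. IL32, an inflammatory cytokine, stood at 6.77, 6.95 and 7.17 against 8.99, 9.29 and 9.24, and GREM1, a secreted BMP antagonist, at 4.27, 4.77 and 4.67 against 6.26, 6.79 and 7.18. In GREM1, siRNA array 1 lay between the PIAS3 side and the controls.

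Membrane receptors, a keratin and nuclear proteins were also among the 15 genes farthest below. LYPD1, a membrane-anchored modulator of acetylcholine receptors, and GLRB, the glycine receptor beta subunit, had gaps of -1.43 and -1.27. KRT19, a simple-epithelium keratin, stood at 9.02, 9.34 and 9.42 against 10.76, 11.16 and 11.02, a gap of -1.34. EPHA5, an ephrin receptor, had -1.39 on its brightest probe set, and the other overlapped. OLFML3, a secreted olfactomedin protein, had -1.16, AUTS2, a partner of Polycomb complexes, -1.01, the corepressor TLE4 -0.97 and the nuclear protein TOX3 -0.97.

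Matrix genes lay below on the PIAS3 side. Of 23 measured, 12 (52.2%) lay below and 0 above, against 11.8% and 9.82% of all genes. The 4 below by at least 0.5 log2 were SPARC, THBS1, TNC and COL5A1. Under 3 other scalings 10 lay below and 1 above. THBS1, the adhesive glycoprotein thrombospondin, stood at 7.06, 7.45 and 7.36 against 8.68, 8.77 and 9.07, and 3 of its 4 other probe sets went the same way. TNC, the matrix protein tenascin C, stood at 4.83, 4.86 and 5.21 against 6.11, 6.89 and 6.40 on its brightest probe set, and its other probe set overlapped. COL5A1, a fibrillar collagen chain, stood at 8.72, 9.19 and 9.08 against 10.04, 10.82 and 10.58. The basement membrane chains COL4A1 and COL4A2 had gaps of -0.36 and -0.24. In all 5 genes siRNA array 1 lay between the PIAS3 side and both controls. Under limma, 6 matrix genes were lower in PIAS3 than in control cells and 0 higher. FN1, fibronectin, overlapped because PIAS3 array 1 was high, at 11.85, 10.37 and 10.58 against 10.74, 10.92 and 10.74.

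Genes of the actin cytoskeleton and of SRF also lay below. Of 23 measured, 15 (65.2%) lay below and 0 above, against 11.8% and 9.82% of all genes. All 23 were lower on siRNA array 2 than on siRNA array 1, by a median of -0.21. Over all genes 7064 were lower and 4879 higher. The number below was 13 to 15 under the other scalings. Without PIAS3 array 1 it was 17, against 19% of all genes, and leaving out an array cannot lower such a count. In the labelled comparison the median member was -0.51, and 1 member, the myosin heavy chain gene MYH9, passed limma's threshold.

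TAGLN, the actin-binding protein transgelin, stood at 6.79, 8.89 and 8.52 against 10.76, 10.12 and 10.09. The PIAS3 replicates were 2.10 apart, and siRNA array 1 was above both controls. PDLIM7, a LIM protein of stress fibres, stood at 7.64, 8.93 and 9.06 against 9.98, 10.48 and 10.46, and 3 of its 4 other probe sets went the same way. CNN3, a calponin, stood at 7.89, 8.17 and 8.23 against 8.73, 8.71 and 9.18. MYL9, a myosin light chain, had a gap of -0.37, CNN2, another calponin, -0.29, TPM4, a tropomyosin, -0.23, and VCL, the focal adhesion protein vinculin, -0.23. ACTB, cytoplasmic actin, differed by 0.01 between the nearest arrays. Smooth muscle actin (ACTA2), CNN1, VIL1 and TLN1 overlapped, as did SRF, whose highest levels were those of the controls. The 3′ to 5′ difference of the actin controls was ordered along the split as well, and its part in these values was not tested.

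The promoters of CNN2 and TPM4 are shown because both genes lay below on the PIAS3 side and hold a CArG box, the motif that SRF binds, in capitals. They are the 250 bases before the gene start from RefSeq (GRCh38.p14), at chr19:1026358-1026607 and chr19:16067288-16067537, both on the plus strand. The match starts 89 bases before the start in CNN2 and 173 in TPM4.
CNN2: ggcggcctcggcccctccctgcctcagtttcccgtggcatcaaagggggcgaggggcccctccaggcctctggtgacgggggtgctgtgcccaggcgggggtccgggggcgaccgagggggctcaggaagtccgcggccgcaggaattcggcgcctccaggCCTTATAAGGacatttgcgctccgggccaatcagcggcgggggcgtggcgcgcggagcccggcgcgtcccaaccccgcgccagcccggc
TPM4: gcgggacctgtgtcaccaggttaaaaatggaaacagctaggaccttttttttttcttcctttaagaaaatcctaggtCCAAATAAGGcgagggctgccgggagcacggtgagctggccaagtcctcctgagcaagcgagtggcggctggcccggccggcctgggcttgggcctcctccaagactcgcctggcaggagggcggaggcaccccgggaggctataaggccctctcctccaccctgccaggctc
A CArG box was found in 4 of the 19 promoters held for the list (CNN2, FHL2, SRF and TPM4) and in 1.29% of all 27305 promoters. FHL2 and SRF overlapped between the sides. No match was read as a site.

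Junction and mesenchymal genes did not move as a block. CDH2, the mesenchymal N-cadherin, stood at 8.86, 9.31 and 9.41 against 10.29, 10.31 and 10.25, and SNAI2, a repressor of epithelial genes, at 5.18, 5.51 and 5.14 against 6.33, 6.83 and 7.09. CDH1, the epithelial E-cadherin, stood at 9.54, 9.14 and 8.60 against 8.37, 8.31 and 8.19. The cadherins thus stood in opposite order between the sides, without overlap. Vimentin (VIM) had a gap of -0.06, and ZEB1 and TWIST1, other repressors of epithelial genes, overlapped. Of 15 mesenchymal genes 5 (33.3%) lay below and 1 (6.67%) above, against 11.8% and 9.82% of all genes. Of 22 junction and keratin genes 4 (18.2%) lay below and 3 (13.6%) above, nearer those shares. EPCAM, an epithelial adhesion protein, lay below with KRT19, at 6.36, 6.78 and 6.04 against 7.12, 7.24 and 7.22.

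Among YAP and TEAD targets 6 of 26 (23.1%) lay below and 2 (7.69%) above, against 11.8% and 9.82% of all genes. Without PIAS3 array 1 these counts were 9 and 4, against 19% and 15.4% of all genes. F3, the coagulation initiator tissue factor, stood at 6.41, 6.73 and 6.82 against 7.23, 7.91 and 8.10. CCN1, a secreted matricellular protein, stood at 10.41, 10.87 and 10.71 against 11.15, 11.87 and 12.00. In both, siRNA array 1 lay between the PIAS3 side and the controls. CCN2, its relative, followed the labels instead. Under limma, 5 members were lower in PIAS3 than in control cells.

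Genes of mitosis did not follow the split, and genes of DNA replication were low on a single array. Of 39 G2/M genes 1 lay above, CDC25B, a phosphatase that activates CDK1, and 1 below, PLK4, the kinase of centriole duplication. The median member deviated from the mean of the 6 arrays by -0.17, 0.10 and 0.11 on the PIAS3 side and 0.23, -0.18 and -0.19 on the control side, so that siRNA array 1 was highest. Without PIAS3 array 1, 6 of the 39 lay above, near the 15.4% of all genes in that setting. Of 38 G1/S genes 9 (23.7%) lay below and 0 above, against 11.8% and 9.82% of all genes. Their median deviation was -0.49 on PIAS3 array 1 and between 0.03 and 0.15 on the other arrays. Without PIAS3 array 1, 5 lay above and 9 below, against 15.4% and 19% of all genes. With array medians set equal 5 lay below.

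Interferon-stimulated genes were high on a single array. The median of 37 members deviated by 2.40 on PIAS3 array 1 and by -0.57 to -0.47 on the other 5 arrays. MX1, an antiviral GTPase, stood at 10.61, 4.86 and 4.94 against 5.05, 4.82 and 4.94. Only OAS1, which makes the activator of RNase L, was separated by more than 0.5 log2, at 10.92, 7.47 and 7.47 against 5.97, 6.34 and 6.24. Without PIAS3 array 1, 6 members lay above and 7 below, near the 15.4% and 19% of all genes in that setting. Genes of amino acid synthesis and ATF4 were lowest on that array. Their median deviation was -0.21, 0.16 and 0.17 on the PIAS3 side and -0.01, -0.09 and -0.10 on the control side. Of 27 members 4 lay above, against 9.82% of all genes, and 11 without PIAS3 array 1, against 15.4%. ASNS, asparagine synthetase, stood at 9.86, 11.28 and 11.23 against 11.17, 10.47 and 10.38.

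**Figure D4:**
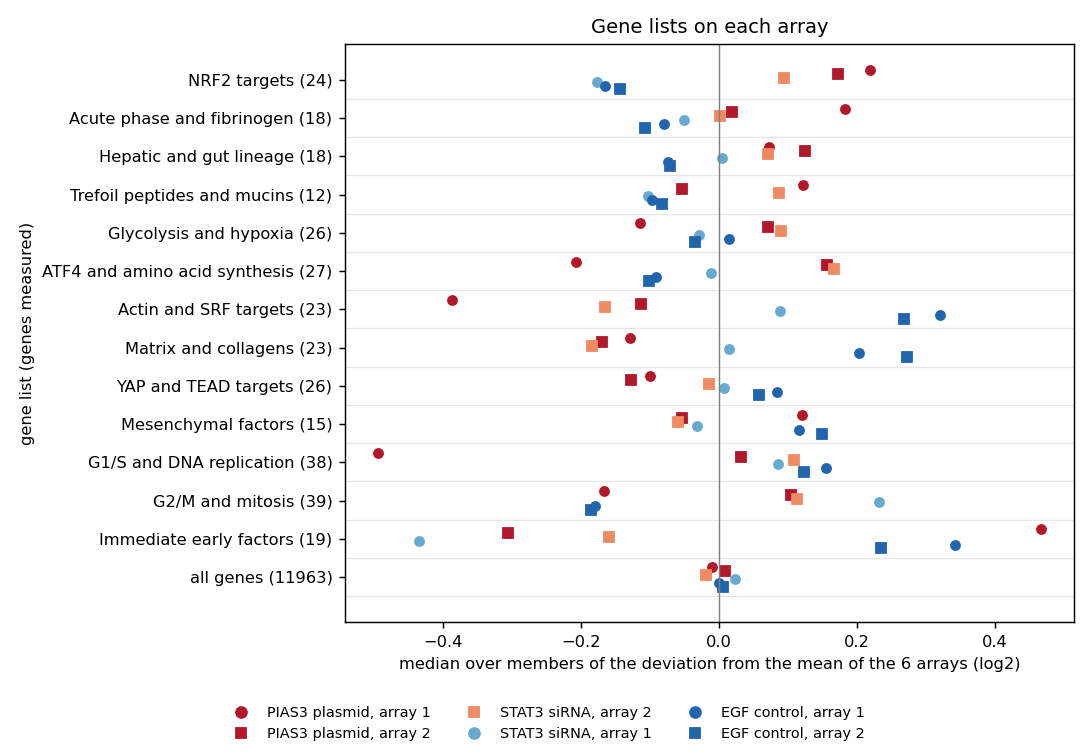
Median over the members of a gene list of each array's deviation from the mean of the 6 arrays (log2), for 13 lists and for all 11963 genes, with red for the PIAS3 side and blue for the control side. NRF2 targets lie to the right and actin and matrix genes to the left on all 3 arrays of the PIAS3 side, whereas G1/S genes are low on PIAS3 array 1 alone.

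Several other lists stood near or under the background of 9.82% above and 11.8% below. Of 20 p53 targets 0 lay above and 2 below, of 28 BCL2 family and caspase genes 2 and 3, and of 12 death receptor genes 1 and 1. BAX, a pore-forming apoptosis effector, had a gap of -0.21, and TNFRSF1A, a tumour necrosis factor receptor, 0.30. Of 23 STAT and cytokine signalling genes 1 lay above and 4 below, of 21 NF-kB targets 2 and 2, and of 12 SUMO pathway genes 0 and 2. Of 12 integrins none was separated. Immediate early genes, which respond within minutes to growth factors, had 1 of 19 above and 0 below. Counts were also made without PIAS3 array 1, and leaving out an array can only keep or raise them. Without it 15.4% of all genes lay above and 19.0% below, and these lists had 1 and 5 (p53), 5 and 8 (BCL2 family and caspases), 2 and 3 (death receptors), 3 and 6 (STAT and cytokine signalling), 2 and 7 (NF-kB), 1 and 2 (SUMO), 0 and 1 (integrins) and 1 and 3 (immediate early genes) above and below.

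In some genes all 4 transfected arrays stood apart from both controls. Of 22215 probe sets, 63 had these 4 arrays below both controls by at least 0.5 log2 and 14 had them above. Along the split, 92 probe sets (0.414%) lay below and 138 (0.621%) above by as much. In 26 of the 63 and 5 of the 14 the sides of the split overlapped, and in the others siRNA array 1 stood between the PIAS3 side and the controls, as in GREM1, SNAI2 and ID1. The genes named next were chosen for a small difference between the siRNA arrays. TFF1, a trefoil peptide of mucous epithelia, stood at 7.29, 6.61 and 7.12 on the PIAS3 side, 7.16 on siRNA array 1, and 10.08 and 10.04 in the controls. CCN2, a secreted growth factor-binding protein, stood at 9.02, 9.20 and 9.07, then 9.13, and 10.30 and 10.18 in the controls. CEACAM6, a cell adhesion protein, stood at 10.16, 9.60 and 9.59, then 9.46, and 10.97 and 11.02 in the controls. On the brightest probe set of these genes the siRNA replicates differed by at most 0.13, and siRNA array 1 was as far from the controls as siRNA array 2. The other CEACAM6 probe set stood at 9.12 on siRNA array 2, 8.77 on siRNA array 1, and 10.43 and 10.60 in the controls. EGR3, CLDN1, SAMD4A, CHST11 and ROR1 were lower on all transfected arrays too, on the brightest probe set. EGR3 was at 3.40 to 3.72 on those arrays, within the range of 3.26 to 3.93 of absent transcripts. Of the 8 genes only SAMD4A was also separated along the split on that probe set, by 0.16.

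Few large differences ran against the split. PIAS3 and control arrays did not overlap in 5520 of 11963 genes, and in 2036 of the 5520 the siRNA difference had the opposite sign. With both differences at least 0.5 log2, 4 genes were opposite and 264 had the same sign. The split was chosen from this likeness, so the imbalance is a description. CCNG2, an atypical cyclin, stood at 7.72, 7.74 and 7.30 against 8.30, 7.12 and 7.11, so that siRNA array 1 was the highest array. CBLB, a ubiquitin ligase, stood at 7.30, 6.92 and 6.49 against 7.17, 6.39 and 6.53. Both PIAS3 arrays lay above both controls in these genes.

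**Figure D5:**
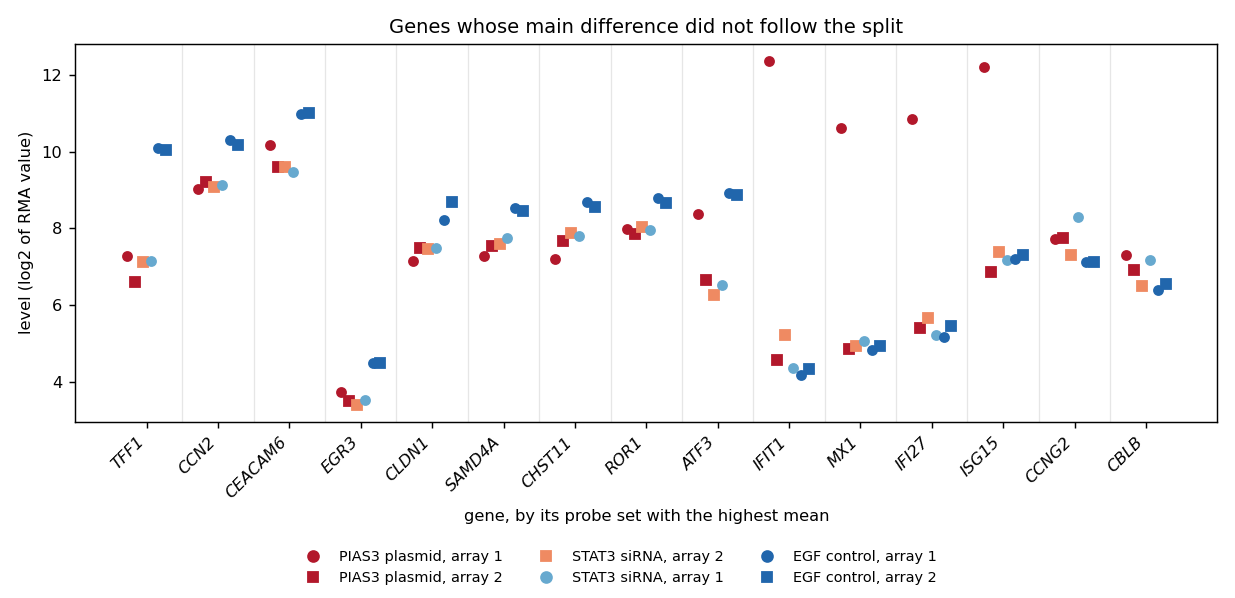
Level (log2 RMA value) on each array for genes whose main difference did not follow the split, in the colours of the sides. From TFF1 to ROR1 the 4 transfected arrays lie below both controls, ATF3 is low on 3 transfected arrays, IFIT1 to ISG15 are high on PIAS3 array 1 alone, and CCNG2 and CBLB are higher on siRNA array 1 than on siRNA array 2.

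Markers of the line itself and of other cell types were read on the same arrays. Of 8 epithelial markers of the line 1 (12.5%) lay above, CDH1, and 3 (37.5%) below, against 9.82% and 11.8% of all genes. Those below were KRT19, EPCAM and the lung factor NKX2-1, with gaps of -1.34, -0.33 and -0.09. The other NKX2-1 probe set overlapped. The keratins KRT8 and KRT18 lay between 12.39 and 12.62 and between 13.60 and 13.79 on all arrays, with overlapping sides. Of 8 fibroblast markers 3 (37.5%) lay below, SPARC by 2.85 and THY1 and LUM by at most 0.02. The log2 of the summed fibroblast signal was 9.66, 9.71 and 9.67 against 10.78, 10.76 and 10.87 with SPARC, and 9.49, 9.47 and 9.41 against 9.63, 9.55 and 9.52 without it. The sides did not overlap in either sum, and most of the difference was lost without SPARC. LUM, a defining fibroblast proteoglycan, was at 2.98 to 3.13, under the range of absent transcripts. Of 4 leukocyte markers measured 1 (25%) lay above, CD14 by 0.10, and the summed signal overlapped, at 8.35, 8.16 and 7.77 against 8.06, 7.88 and 7.89. Of 6 endothelial markers none was separated. The part of other cells in the differences was not tested further.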

How the data were processed

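Gene expression was measured in 6 RNA samples of A549 cells, 1 Affymetrix array each, in 3 labelled groups of 2. Values are on a log2 scale, as the authors deposited them, 1 per probe set, and RMA is named for them in the submitters' processing notes. It subtracts background, brings the arrays to a common distribution and combines probes, so that differences of dim probe sets are compressed. The version of the software was not given in the sources used here. Scanner output was not used here, so depth in reads has no counterpart and the number of arrays limits the precision. Array hybridization dates were not used.

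Of the probe sets, 62 array controls were left out and 22215 were kept with no filter on low values. By the platform annotation 19064 had 1 symbol, 1043 several and 2108 none, and 19052 were matched by gene identifier to RefSeq, with 0 symbols updated. The probe set with the highest mean stood for each of 11963 genes. The sides were taken from the values, and the members, the 45 gene lists and the rules were chosen with earlier results of these data known. Some genes are in more than 1 list.

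A gap was computed from the array values alone, with no mean over a side and no test. The only test was limma 3.58.1 (R 4.3.3, lmFit and eBayes, two-sided) of the labelled PIAS3 against the control arrays, Benjamini-Hochberg over 22215 probe sets, with a threshold of 0.05, 2 residual and 3.70 prior degrees of freedom. It was tested on simulated data. Named genes were the 15 with the largest gap in each direction, up to 3 members of each list, STAT3, PIAS3, TFF1 and MX1, 8 that followed the transfected labels and 5 that ran against the split. Other list members in the text, the genes named for differences within a side, and the interferon and stress genes of the plot of other patterns, were chosen after their values were seen. Alternatives were other scalings (quantile again, median centring, cyclic loess), leaving out the dimmest 40% of probe sets, the mean over all probe sets of a gene, other limma settings, a replicate block, and leaving out each array. The replicate numbers did not pair the arrays: deviations of same-numbered PIAS3 and control arrays correlated at 0.0917 over probe sets, and the other group pairs at -0.0470 and -0.0591. Tables and figures were made with Python 3.11.15 and matplotlib 3.10.9.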

Additional observations from a re-analysis of the deposited data

Results flagged for a closer look

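The poly-A RNA spike-ins, which are added before labelling and belong to none of the comparisons, stood 1.41 log2 above the control mean on PIAS3 array 1, as a median over 24 control probe sets. On PIAS3 array 2, siRNA array 2 and siRNA array 1 they stood at -0.13, -0.23 and -0.36. The hybridization controls, 18 probe sets, stood 0.48 above on PIAS3 array 1 and between -0.10 and 0.09 on the other arrays. PIAS3 array 1 is also the array with the high interferon-stimulated genes.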

How the results depend on the processing

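Counts of separated probe sets stayed within 1.5 times under quantile normalization, median centring, cyclic loess and the level filter. With 1 probe set per gene they were 1175 above and 1410 below with any gap, and 90 and 55 with at least 0.5 log2. Leaving out single arrays gave 2405 to 3208 above and 3459 to 4375 below with any gap, 155 to 217 and 99 to 206 with at least 0.5 log2, and 36 to 57 and 18 to 51 with at least 1 log2. A side with fewer arrays separates more easily by construction. The correlation of 0.432 was 0.335 to 0.465 and the slope 0.202 to 0.440 with 1 array left out, and Spearman's rho was 0.229. Of the labelled limma calls, 130 higher and 132 lower, leaving out 1 array gave 0 to 1846 and 0 to 2731. With all 6 arrays in the fit 6 and 16 were called, and at an adjusted p of 0.10 there were 273 and 256. With the replicate block, where the numbers do not pair the arrays, there were 224 and 227. The share with the same sign between the siRNA arrays was 100% of those called higher with all 6 arrays, and 93.0% and 87.5% of those called higher and lower at 0.10. Where no construction is named, the cause was not tested. Of 122 named genes with separated sides, 112 to 115 stayed separated the same way under the other scalings and the mean of probe sets, the others overlapped, and 0 reversed. With 2 arrays a group and 3 a side, separations near 0 on the log2 scale are within reach of scaling.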

Other observations

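Genes with small but separate levels on the sides lay outside the groups above. SCD, the desaturase that makes oleic acid, stood at 11.71, 11.54 and 11.30 on the PIAS3 side and 10.90, 10.80 and 10.69 on the control side, and all 3 of its other probe sets went the same way. SREBF1, a factor that drives fatty acid synthesis genes, had a gap of 0.15. Of 18 lipid synthesis genes 2 lay above and 2 below, near the 9.82% and 11.8% of all genes. BCL6, a transcriptional repressor, stood at 9.08, 8.11 and 7.94 against 7.61, 7.26 and 7.16, and its other probe set overlapped. S100A2, a calcium-binding protein of squamous cells, lay below at 6.96, 7.47 and 7.60 against 8.25, 8.59 and 8.71, opposite to S100P. Of 11 S100 genes 3 (27.3%) lay below and 1 (9.09%) above, against 11.8% and 9.82% of all genes.

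The arrays that resembled each other most across labels still differed in single genes. HSPA6, an inducible heat shock protein, stood at 6.78 on siRNA array 2 and 5.56 on PIAS3 array 2, and KCNJ16, a potassium channel, at 5.38 and 6.41. On the control side ATF3, a stress-induced factor, stood at 6.53 on siRNA array 1 and 8.92 and 8.88 on the controls, and FOS at 9.22 against 10.49 and 10.58.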
